A study of Mus musculus with 6 samples.

Results

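The small proline-rich (Sprr) and late cornified envelope (Lce) genes were taken from the gene table as every symbol that starts with Sprr or Lce followed by a digit. The rule uses names and no measured value. It found 36 genes of 23951, with 14 Lce1 genes, 6 Lce3 genes and Lce6a among the 21 Lce genes, and 2 Sprr1 genes, 11 Sprr2 genes, Sprr3 and Sprr4 among the 15 Sprr genes. They were measured by RNA sequencing of whole skin from 3 control mice, labelled JunB +/+, and 3 JunBΔep mice, labelled JunB dep, in which Junb is deleted in cells that express keratin 5 (K5), through a K5-Cre transgene acting on a floxed JunB allele. Keratin 5 marks the basal layer of the epidermis and its appendages, so fibroblasts, muscle, vessels and most immune cells of the sample keep Junb. All mice were littermates of strain C57Bl/6 aged 6 to 7 months, and the skin of the JunBΔep mice was lesional. Libraries are named by genotype and by the replicate number 0, 1 or 2 of the labels, and values are given in that order. The unit is FPKM, fragments mapped to a transcript scaled to its length and to the mapped total of the library, which accounts for transcript length and can be compared between genes.

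Sprr and Lce proteins are precursors of the cornified envelope, the cross-linked protein shell that replaces the plasma membrane of keratinocytes as they become the dead outer layer of the skin. Transglutaminases join them to loricrin, involucrin and other precursors, with Sprr proteins acting as bridges. Their genes lie side by side in the epidermal differentiation complex. Lce1 genes belong to the late program of healthy epidermis, Lce3 and Sprr2 genes are known to be induced in injured or inflamed epidermis, Sprr1 genes respond to stress and injury, and Sprr3 is best known from the oral and oesophageal lining. JunB is a subunit of the AP-1 transcription factor, whose dimers bind TGANTCA.

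All 35 members with a position in the GENCODE annotation of mm9 lie on chromosome 3, within chr3:92019757-92822982. Lce1k had no entry there. From the first gene onward the order is the 11 Sprr2 genes, Sprr1b, Sprr3, Sprr1a, Sprr4, Lce6a, 13 Lce1 genes (Lce1k placed by its RefSeq neighbours), the 6 Lce3 genes and, after them, Lce1m. Promoter sequence, the 250 bases before the annotated start, was found for 33 members in RefSeq (GRCm38.p6). The AP-1 site TGANTCA, which reads the same on both strands, was present in 9 of 33 members (27.27%), against 2217 of 32851 promoters of the genome (6.749%). The 9 were 7 of 9 Sprr2 genes and both Sprr1 genes. None of the 13 Lce1 genes, the 6 Lce3 genes, Sprr3, Sprr4 or Lce6a had the site in the window. A match is a description of the letters and not a bound site. The stretches below are those of the 9 promoters with a match, whatever the change of their genes. Each is 30 bases 5′ to 3′ on the strand of the gene, with the AP-1 match in capitals. Sprr2k and Sprr1a have a second match, which is not shown.
Sprr2b: aaaaggactctTGAGTCAcaagactcaacc
Sprr2d: tgagtgctcacTGAGTCAcaggtctcaacg
Sprr2e: tgagtgctcacTGAGTCAcaggtctcaaca
Sprr2f: aaactgaatatTGAGTCAcagtgctcaaca
Sprr2h: gggatggtctcTGAGTCActgcactttacc
Sprr2i: gaagggctcacTGAGTCAcaggactgaaca
Sprr2k: ggaatgtcctcTGAGTCActgtacttgact
Sprr1b: agcacctaggaTGAATCAtgtctgacaggc
Sprr1a: ataactaaagcTGAGTCAgagggtgaacta
The match began 193 to 198 bases before the start in the 7 Sprr2 genes, 146 bases before it in Sprr1a and 111 bases before it in Sprr1b. The same 7 Sprr2 promoters, and no other member's, also held the octamer ATGCAAAT on either strand, a POU factor motif found in 526 of all promoters (1.601%). The octamer and the AP-1 site do not overlap. These 7 promoters are 57.53% to 88.89% identical to each other, so their matches are not independent. The member counts of both motifs therefore cannot be set against the genome shares as if they were separate sites. The 2 Sprr2 promoters without either motif were those of Sprr2a1 and Sprr2a2, which are identical to each other over the window and 45.45% to 48.01% identical to the other Sprr2 promoters. The cyclic AMP response element TGACGTCA was in 0 of 33 member promoters and in 1.546% of all promoters.

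Whole promoters are printed for Sprr2d, Lce3b and Lce1m because these genes stand for the 3 patterns described further on. For Sprr2d (chr3:92338890-92339139, plus strand, GRCm38.p6), capitals mark the AP-1 site and the octamer. Lce3b (chr3:92932729-92932978, plus strand) and Lce1m (chr3:93019062-93019311, minus strand) hold neither, so their sequences have no capitals.
Sprr2d promoter: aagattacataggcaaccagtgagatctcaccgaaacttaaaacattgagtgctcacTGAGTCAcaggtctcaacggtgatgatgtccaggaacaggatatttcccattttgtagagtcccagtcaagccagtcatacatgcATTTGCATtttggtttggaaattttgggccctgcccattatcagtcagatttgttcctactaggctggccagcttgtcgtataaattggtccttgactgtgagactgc
Lce3b promoter: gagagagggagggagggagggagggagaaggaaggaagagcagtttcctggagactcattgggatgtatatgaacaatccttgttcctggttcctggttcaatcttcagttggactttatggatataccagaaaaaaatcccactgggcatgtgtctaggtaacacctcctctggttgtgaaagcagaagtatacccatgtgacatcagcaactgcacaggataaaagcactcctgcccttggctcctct
Lce1m promoter: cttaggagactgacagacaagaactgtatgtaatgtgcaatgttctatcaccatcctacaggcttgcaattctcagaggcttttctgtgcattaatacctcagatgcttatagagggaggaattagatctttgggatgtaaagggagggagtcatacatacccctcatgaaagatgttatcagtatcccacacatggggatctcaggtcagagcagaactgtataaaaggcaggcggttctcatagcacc

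The coding sequences differ by subfamily in the residues they encode. Proline codons made up 38.16% of the codons of the median Sprr2 gene and 10.49% of those of the median Lce1 gene, whereas glycine codons were at 0% and 20.14% and serine codons at 3.704% and 24.46%. Cysteine codons were frequent in both, at 17.11% and 21.17%. The coding sequence of Sprr2d (chr3:92143062-92144795, plus strand, mm9, 2 exons) is shown as an example of the proline-rich group, with every cysteine codon in capitals.
Sprr2d coding sequence: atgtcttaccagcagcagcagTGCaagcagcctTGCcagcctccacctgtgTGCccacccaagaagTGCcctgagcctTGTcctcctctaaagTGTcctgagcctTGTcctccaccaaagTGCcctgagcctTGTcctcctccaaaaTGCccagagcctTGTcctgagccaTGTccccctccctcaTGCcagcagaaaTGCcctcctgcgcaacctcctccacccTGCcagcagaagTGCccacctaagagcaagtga
Relatedness bears on the values, since short reads from near-identical genes can be placed on either copy. Sprr2a1 and Sprr2a2 have identical coding sequences, and the 5 Lce3 genes compared are 94.28% to 99.33% identical. Lce1 pairs range from 52.36% to 95.72%, with Lce1c and Lce1f the closest pair and Lce1m the most distant gene, at most 59.21% identical to another Lce1 gene. Values of single Lce3 genes, and of Sprr2a1 and Sprr2a2, are therefore less certain than their sums. The same caution applies to single Lce1 genes, as Lce1h and Lce1i are 93.92% identical and Lce1g and Lce1a1 91.2%. Lce1k had no coding sequence to compare.

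The JunBΔep libraries were not alike. Junb was at 59.3, 72.4 and 56.9 FPKM in the controls and 129.6, 42.8 and 28.0 FPKM in the JunBΔep libraries, so in the library labelled JunBΔep replicate 0 the deleted gene was higher than in every control. Cells that keep Junb contribute to these values, so they check the labels only in part. The mucosal keratins Krt4 and Krt13 were at 1356 and 1989.6 FPKM in the same library and at most 0.937 and 0.367 FPKM in the other 5. The labels call every sample skin and name no body site, and whether this library came from the same site as the others was not tested. The keratinocyte genes Krt5 and Krt10 were at 1588 to 3725 and 1968 to 3872 FPKM over the 6 libraries. Other keratinocyte markers varied more. The suprabasal keratin Krt1 was at 958, 595 and 587 FPKM in the controls and 4466, 446 and 712 FPKM in the JunBΔep libraries, highest in JunBΔep replicate 0. Of the 5 suprabasal markers 2 were lower in every JunBΔep library than in every control, the desmosomal gene Dsg1a, at 113, 101 and 85.0 FPKM in the controls and 58.1, 69.0 and 62.2 FPKM in the JunBΔep libraries, and the keratin Krt2, which did not exceed 1.00 FPKM in any library. Neither passed the test (limma, adjusted p = 0.257 and 0.601), and 9.16% of all tested genes were lower without overlap. Krt14, Krt6a, Krt6b and Krt16 are listed at 0 in JunBΔep replicate 0, where Krt17 was at 4025 FPKM. A 0 in this table can be a failed estimate. Liver genes summed to 1429 FPKM in control replicate 0 and to at most 21.0 FPKM elsewhere. The FPKM values sum to 481078 to 630363 per library, 18418 to 18873 genes were above 0, and the number of reads behind a value is unknown. Results that rest on JunBΔep replicate 0 are read beside their values without it.

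In the limma comparison of log2(FPKM + 0.5) values, which covered the 17021 genes averaging 0.1 FPKM or more, no Sprr or Lce gene passed an adjusted p of 0.05. Of the 36 members 34 were tested, and Sprr2a1 and Sprr2a2 were below the filter. Over all tested genes 0.0% were called higher and 1.38% (235 genes) lower in the JunBΔep libraries. At an unadjusted p below 0.05 there were 3 members, Lce1g, Lce1h and Lce1k, each higher in JunBΔep, against 1.43% of all tested genes higher and 6.13% lower. Adjusted p-values of the 34 ran from 0.202 for Lce1h to 0.979 for Lce1a1. The log2 fold change was above 0 in 29 of 34 members, with a median of 1.85, against 53.4% and a median of 0.031 over all tested genes. Of the 34 tested, 3 (Sprr2j-ps, Sprr2k and Sprr3) passed the filter only through JunBΔep replicate 0, so this count and median are not independent of it. Without that library 25 of 34 were above 0 and the median was 0.24. The share and median over all tested genes given above come from the fit with all libraries and are no background for these figures. Fold changes on this scale understate the change of genes near 0. For a single gene, 3 libraries per group allow an exact two-sided permutation p no smaller than 0.1.

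The members nonetheless differed widely between libraries, and most of that difference lay in 1 mouse. In whole skin, fewer cells of a type and less RNA per cell cannot be told apart. JunBΔep replicate 0 was the highest library in 26 of the 34 tested members, and in the 2 untested ones, against 29.7% of all tested genes. In 17 of the 34 it was over 10-fold above every other library, after 0.5 FPKM was added to each value as in all 10-fold counts here, where 0.764% of all tested genes were. The 17 were all 6 Lce3 genes, 9 Sprr2 genes, Sprr1b and Sprr3. They include Sprr2j-ps, Sprr2k and Sprr3, which passed the filter only through that library, and among genes averaging 0.1 FPKM over the other 5 libraries the count was 14 of 31 members, against 0.618% of all such genes. In 1 member, Lce1m, it was over 10-fold below every other library, as in 0.212% of all tested genes. The median difference from the control mean over all 36 members was 3.51, 0.12 and 0.38 in JunBΔep replicates 0, 1 and 2 on the log2(FPKM + 0.5) scale, against -0.022, -0.0048 and 0.0041 over all tested genes. The sample names carry 2 series of numbers, a first with JunBΔep replicate 0 and control replicates 0 and 1 and a second with JunBΔep replicates 1 and 2 and control replicate 2. Within the first and the second series the median difference of the members was 3.89 and 0.40.

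**Figure D1:**
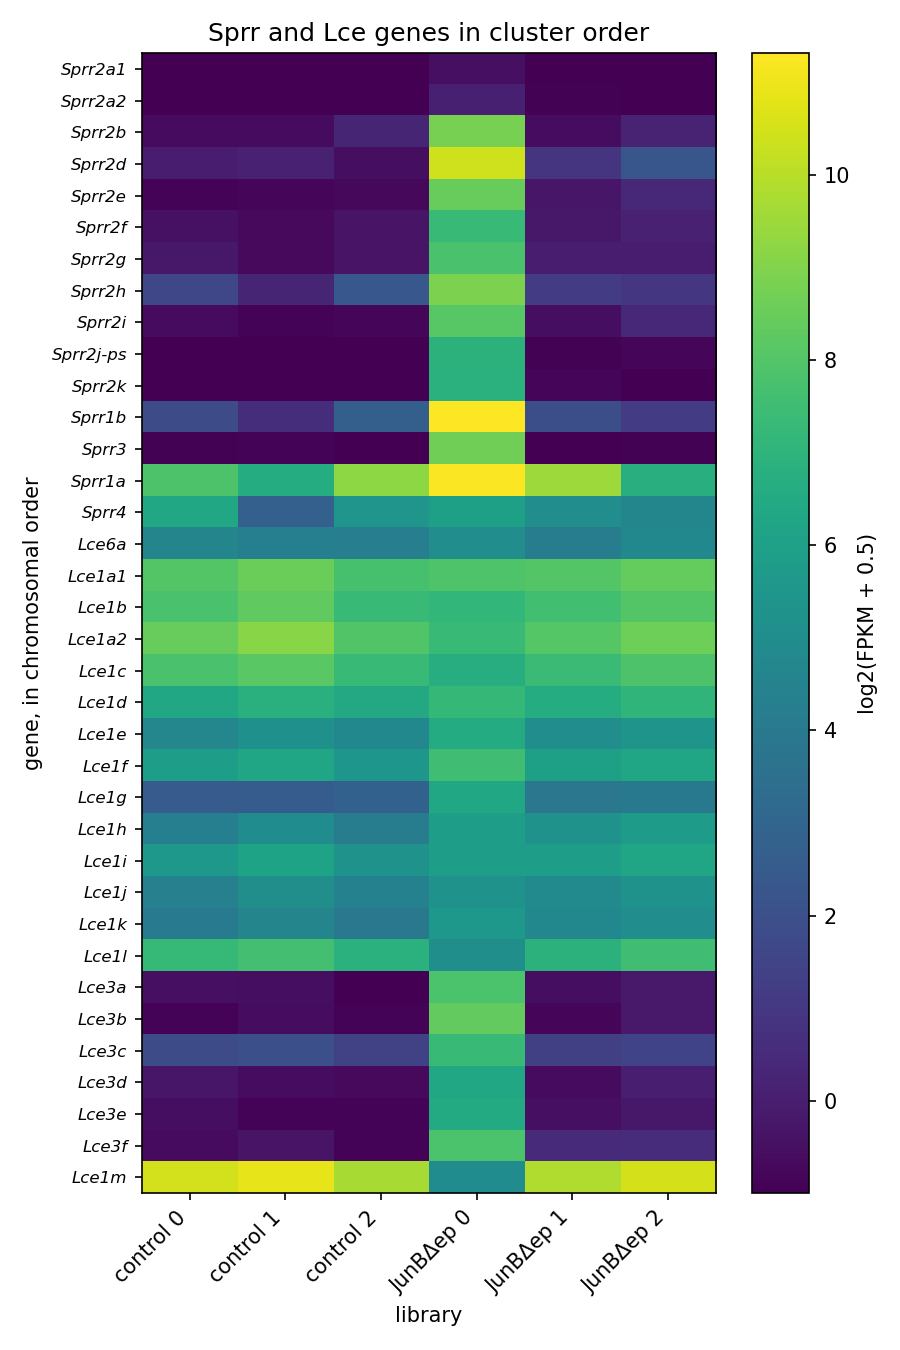
Level of each of the 36 genes, as log2(FPKM + 0.5) by colour, in the 3 control and 3 JunBΔep libraries (columns), with the genes in chromosomal order (rows). The column of JunBΔep replicate 0 is bright over 9 of the 11 Sprr2 rows (all but Sprr2a1 and Sprr2a2) and the Sprr1b, Sprr3 and Lce3 rows, which are dark in the other 5 libraries, and dark at Lce1m, which is bright in the others.

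Sprr2 genes, which encode short proline-rich cross-linking proteins, were almost silent in 5 of the 6 libraries, and 9 of the 11 were abundant in JunBΔep replicate 0. Their summed level was 4.03, 1.79 and 6.15 FPKM in the controls and 3540.0, 4.75 and 9.10 FPKM in the JunBΔep libraries. The sum in JunBΔep replicate 0 was 389-fold above the next highest library, JunBΔep replicate 2. Sprr2d, the most abundant of them in JunBΔep replicate 0, was at 0.507, 0.601 and 0.186 FPKM in the controls and 1363, 1.30 and 4.35 FPKM in the JunBΔep libraries. Here the groups did not overlap, since JunBΔep replicates 1 and 2 also lay above the highest control, although far below replicate 0. Its log2 fold change was 4.64 (SE 2.42, adjusted p = 0.722 from limma) with all libraries, and without JunBΔep replicate 0 it was 1.69 (SE 0.49, adjusted p = 0.400 from limma).

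Sprr2e was at 0.0356, 0.0745 and 0.0980 FPKM in the controls and 353, 0.343 and 0.775 FPKM in the JunBΔep libraries. Sprr2i was at 0.149, 0.0390 and 0.0685 FPKM in the controls and 280.3, 0.196 and 0.774 FPKM in the JunBΔep libraries. Both followed the order of Sprr2d, with all JunBΔep libraries above all controls and replicate 1 the lowest of the 3. Values of Sprr2f were 0.227, 0.119 and 0.278 FPKM in the controls and 164, 0.364 and 0.588 FPKM in the JunBΔep libraries. Sprr2g, a pseudogene in RefSeq and protein coding in GENCODE, was at 0.354, 0.111 and 0.292 FPKM in the controls and 221, 0.464 and 0.477 FPKM in the JunBΔep libraries. In these 2 genes as well the groups did not overlap, with the lower of JunBΔep replicates 1 and 2 at 1.31 times the highest control in each. Sprr2j-ps, another RefSeq pseudogene, is listed at 0 in all controls and was at 118, 0.0299 and 0.0710 FPKM in the JunBΔep libraries.

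Sprr2b, Sprr2h and Sprr2k were high in JunBΔep replicate 0 with the other libraries mixed. Sprr2b was at 0.132, 0.138 and 0.696 FPKM in the controls and 449, 0.173 and 0.649 FPKM in the JunBΔep libraries. Sprr2h was at 2.62, 0.710 and 4.53 FPKM in the controls and 475, 1.78 and 1.41 FPKM in the JunBΔep libraries. For both genes control replicate 2 was above JunBΔep replicates 1 and 2, so only JunBΔep replicate 0 lay above every control. Sprr2k is listed at 0 in the controls and in JunBΔep replicate 2, with 115 and 0.0631 FPKM in JunBΔep replicates 0 and 1. Sprr2a1 and Sprr2a2, the pair without the AP-1 and octamer letters, did not exceed 0.542 FPKM in any library. Their annotated spans overlap and their coding sequences are identical, so a low value here cannot be told apart from reads placed elsewhere. The median log2 fold change of the 9 tested Sprr2 genes was 2.99, or 0.38 without JunBΔep replicate 0, all 9 were above 0 with all libraries, and adjusted p-values ran from 0.722 to 0.736. By library the median difference of the 11 genes from the control mean was 7.89, 0.17 and 0.39 in JunBΔep replicates 0, 1 and 2, and by number series it was 7.94 and 0.14.

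Sprr1 genes, whose products are major bridging proteins of stressed keratinocytes, differed from each other. Sprr1b was at 3.20, 1.03 and 6.06 FPKM in the controls and 2557, 3.42 and 1.72 FPKM in the JunBΔep libraries. Without JunBΔep replicate 0 the remaining libraries overlapped, and its log2 fold change went from 3.08 (SE 2.69, adjusted p = 0.724 from limma) to -0.18 (SE 0.68, adjusted p = 0.945 from limma). Sprr1a was the Sprr gene with the highest level outside JunBΔep replicate 0, at 232.9, 99.1 and 589.7 FPKM in the controls and 2437, 720.3 and 110.0 FPKM in the JunBΔep libraries. It was highest in JunBΔep replicate 0, but control replicate 2 and JunBΔep replicate 1 were also well above the other three libraries, so that the groups overlapped. Its log2 fold change was 1.27 (SE 1.22, adjusted p = 0.736 from limma), and 0.24 (SE 1.09, adjusted p = 0.955 from limma) without JunBΔep replicate 0, and it ranged from 0.24 to 2.47 when any 1 library was left out. Hair shaft keratin genes (Krt31, Krt33a, Krt33b, Krt35 and Krt85) were high in the same pair of libraries, with a sum of 0.556, 1.12 and 967 FPKM in the controls and 55.6, 1412 and 16.3 FPKM in the JunBΔep libraries. Krt85 is listed at 0 in JunBΔep replicate 0, and the part of these genes' source in the Sprr1a values was not tested.

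Sprr3, a proline-rich protein typical of oral and oesophageal epithelium, was at 0.0212, 0.0444 and 0 FPKM in the controls and 398, 0 and 0.0220 FPKM in the JunBΔep libraries. It was thus near or at 0 in 5 libraries and, in JunBΔep replicate 0, within the range of the 9 abundant Sprr2 genes. Its log2 fold change was 3.17 (SE 2.60, adjusted p = 0.722 from limma) with all libraries and -0.030 (SE 0.11, adjusted p = 0.943 from limma) without JunBΔep replicate 0. Sprr4, a cornified envelope precursor described in ultraviolet-exposed skin, was at 79.2, 6.47 and 42.9 FPKM in the controls and 63.7, 32.1 and 24.3 FPKM in the JunBΔep libraries. The controls alone spanned 12.2-fold and enclosed all JunBΔep libraries.

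**Figure D2:**
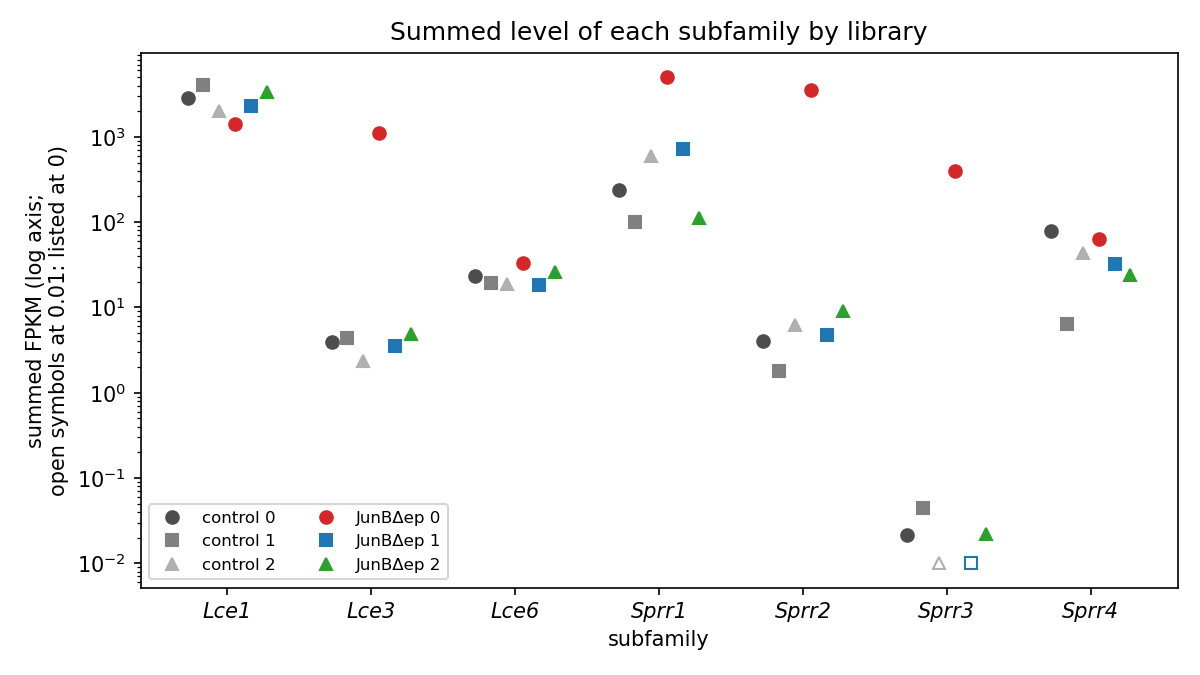
Summed FPKM of each subfamily (log axis) in each of the 6 libraries, with controls in greys and JunBΔep libraries in colours, and open symbols for values listed at 0. JunBΔep replicate 0 stands at 1108 FPKM for Lce3 and 3540.0 FPKM for Sprr2, whereas the other 5 libraries stand between 1.79 and 9.10 FPKM for both, and for Lce1 it is the lowest library at 1421 FPKM.

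Lce3 genes, which encode small cysteine- and serine-rich envelope proteins, followed the Sprr2 pattern. The sum of the 6 genes was 3.98, 4.38 and 2.36 FPKM in the controls and 1108, 3.56 and 4.90 FPKM in the JunBΔep libraries. JunBΔep replicate 0 was 226-fold above the next library, and single genes were 44.98-fold (Lce3c) to 848-fold (Lce3b) above it. Lce3b was at 0.0410, 0.172 and 0.0377 FPKM in the controls and 325, 0.0719 and 0.383 FPKM in the JunBΔep libraries. Lce3a was at 0.210, 0.176 and 0 FPKM in the controls and 229, 0.184 and 0.391 FPKM in the JunBΔep libraries. In both, a JunBΔep library other than replicate 0 fell among the controls. Lce3c was the one Lce3 gene above 1 FPKM in every library, at 3.06, 3.55 and 2.14 FPKM in the controls and 159, 2.04 and 2.29 FPKM in the JunBΔep libraries, and in JunBΔep replicates 1 and 2 it lay within or just under the control range.

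Values of Lce3d were 0.329, 0.172 and 0.113 FPKM in the controls and 79.9, 0.144 and 0.512 FPKM in the JunBΔep libraries. Those of Lce3e were 0.190, 0.0397 and 0.0348 FPKM in the controls and 91.5, 0.199 and 0.354 FPKM in the JunBΔep libraries. The groups overlapped for Lce3d and did not for Lce3e, where the lowest JunBΔep library was 1.05 times the highest control. Lce3f was at 0.151, 0.276 and 0.0346 FPKM in the controls and 224, 0.924 and 0.977 FPKM in the JunBΔep libraries, and here JunBΔep replicates 1 and 2 were both at least 3.35-fold above the highest control, although below 1 FPKM. The log2 fold change of Lce3f was 3.59 (SE 1.98, adjusted p = 0.722 from limma), and 1.17 (SE 0.21, adjusted p = 0.121 from limma) without JunBΔep replicate 0. Over the 6 genes the median log2 fold change was 2.88, or 0.31 without JunBΔep replicate 0. The median difference from the control mean was 7.87, 0.058 and 0.54 in JunBΔep replicates 0, 1 and 2, and 7.77 and 0.47 within the 2 number series. Since the 5 coding sequences compared are nearly identical, reads of 1 abundant Lce3 gene may contribute to the values of others.

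The Lce1 genes, the late envelope genes of healthy epidermis, did not move as a block. They were the most abundant subfamily in every library but JunBΔep replicate 0, with a sum of 2893, 4017 and 2002 FPKM in the controls and 1421, 2302 and 3343 FPKM in the JunBΔep libraries. Of the summed FPKM of all members, Lce1 made up 75.0% to 96.8% in the controls, 74.6% and 95.0% in JunBΔep replicates 1 and 2 and 12.3% in JunBΔep replicate 0. Lce1m alone provided 42.0% to 49.0% of the Lce1 sum in the controls, 40.0% and 43.8% in JunBΔep replicates 1 and 2, and 2.20% in JunBΔep replicate 0. Its level was 1419, 1884 and 841 FPKM in the controls and 31.2, 921 and 1464 FPKM in the JunBΔep libraries. It was thus the most abundant member in all controls and the lowest Lce1 gene in JunBΔep replicate 0, while replicates 1 and 2 stayed inside the control range. The log2 fold change was -1.91 (SE 1.45, adjusted p = 0.722 from limma), and -0.17 (SE 0.48, adjusted p = 0.920 from limma) without JunBΔep replicate 0. Without Lce1m the sum of the other 13 genes in JunBΔep replicate 0 was 1389.6 FPKM, within the control range of 1161 to 2133 FPKM.

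In chromosomal order the Lce1 genes of JunBΔep replicate 0 split into 3 stretches, a division made after the values were seen. The first stretch, Lce1a1, Lce1b, Lce1a2 and Lce1c, lay below the control mean there, with differences of -0.19, -0.67, -1.18 and -1.10 on the log2(FPKM + 0.5) scale. Lce1a1 was at 258, 371 and 216 FPKM in the controls and 239.6, 263 and 344 FPKM in the JunBΔep libraries. Lce1b was at 216, 321 and 163 FPKM in the controls and 141, 194 and 263 FPKM in the JunBΔep libraries. For Lce1a1 the groups overlapped throughout, whereas for Lce1b JunBΔep replicate 0 was the lowest of the 6 libraries. Lce1a2 was at 351, 562 and 251 FPKM in the controls and 162, 272.7 and 381 FPKM in the JunBΔep libraries. Lce1c was at 221, 285 and 160.3 FPKM in the controls and 101, 168 and 238 FPKM in the JunBΔep libraries. In this pair, too, only JunBΔep replicate 0 was under the lowest control.

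The middle stretch, from Lce1d to Lce1k, was higher in JunBΔep replicate 0, by 0.64 for Lce1d, 1.69 for Lce1e, 1.68 for Lce1f, 3.68 for Lce1g, 1.33 for Lce1h, 0.25 for Lce1i, 0.72 for Lce1j and 1.35 for Lce1k. Lce1g was lowest of the subfamily in the controls and showed the largest increase in it in JunBΔep replicate 0, at 5.37, 5.44 and 6.70 FPKM in the controls and 80.3, 14.1 and 15.3 FPKM in the JunBΔep libraries. All JunBΔep libraries were above all controls, replicates 1 and 2 by at least 2.10-fold, and the controls themselves spanned only 1.25-fold. Its log2 fold change was 2.07 (SE 0.67, adjusted p = 0.447 from limma). Leaving out JunBΔep replicate 0 gave 1.27 (SE 0.17, adjusted p = 0.0636 from limma), the lowest adjusted p of any member in any fit and still above 0.05, where 0.0646% of tested genes were called higher and 0.705% lower. By number series the difference was 3.78 and 1.08.

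Lce1h was at 19.8, 31.2 and 18.3 FPKM in the controls and 57.4, 38.4 and 54.3 FPKM in the JunBΔep libraries. Lce1k was at 16.8, 23.5 and 14.6 FPKM in the controls and 46.4, 26.4 and 32.8 FPKM in the JunBΔep libraries. In both genes the groups did not overlap, and the JunBΔep libraries lay within 2-fold of each other. The log2 fold change of Lce1h was 1.12 (SE 0.27, adjusted p = 0.202 from limma). That of Lce1k was 0.91 (SE 0.28, adjusted p = 0.397 from limma). Without JunBΔep replicate 0 the values were 1.01 (SE 0.30, adjusted p = 0.415 from limma) and 0.70 (SE 0.25, adjusted p = 0.549 from limma). Lce1e was at 25.6, 35.4 and 26.3 FPKM in the controls and 94.3, 33.0 and 41.2 FPKM in the JunBΔep libraries. Lce1f was at 56.9, 78.8 and 43.9 FPKM in the controls and 188, 62.6 and 75.8 FPKM in the JunBΔep libraries. These 2 genes were over 2-fold higher in JunBΔep replicate 0 than in any other library, while replicate 1 lay inside the control range. Lce1f and Lce1c share 95.72% of their coding bases and differed from the controls in opposite directions in JunBΔep replicate 0.

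Lce1d was at 84.0, 114 and 84.9 FPKM in the controls and 145, 98.3 and 133 FPKM in the JunBΔep libraries. Lce1i was at 46.8, 70.1 and 39.6 FPKM in the controls and 60.2, 59.1 and 75.2 FPKM in the JunBΔep libraries. Values of Lce1j were 20.1, 33.6 and 20.6 FPKM in the controls and 39.9, 29.7 and 39.6 FPKM in the JunBΔep libraries. For these the highest control overlapped the JunBΔep libraries. The third stretch held Lce1l, at 152, 202 and 116 FPKM in the controls and 34.6, 122 and 186 FPKM in the JunBΔep libraries, and, beyond the Lce3 genes, Lce1m. JunBΔep replicate 0 was the lowest library for both. The Lce1 median of the log2 fold change was 0.38, with 9 genes above 0 and 5 below, and the median difference from the control mean was 0.44, 0.091 and 0.44 in JunBΔep replicates 0, 1 and 2. The 2 number series gave 0.32 and 0.48. Lce6a, which lies between the Sprr and Lce1 genes, was at 23.5, 19.4 and 18.9 FPKM in the controls and 32.8, 18.4 and 26.1 FPKM in the JunBΔep libraries, with overlapping groups.

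**Figure D3:**
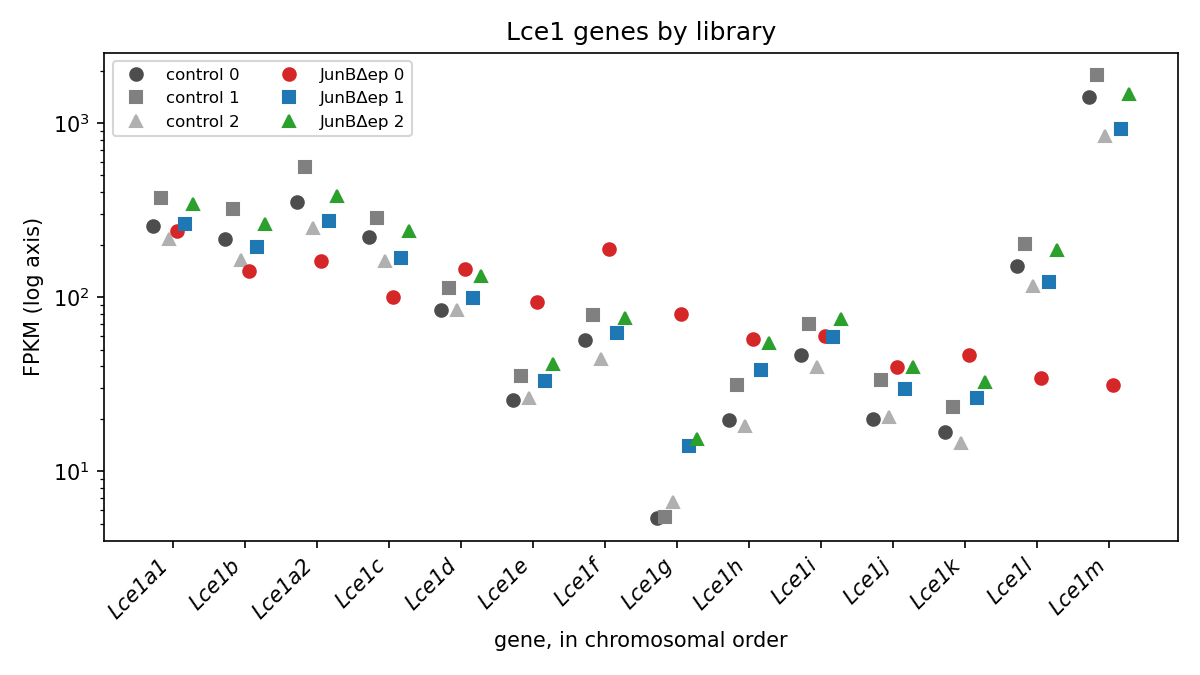
FPKM (log axis) of the 14 Lce1 genes in chromosomal order in each control (grey) and JunBΔep (coloured) library. JunBΔep replicate 0 lies under the controls at Lce1b, Lce1a2, Lce1c, Lce1l and Lce1m, at 31.2 FPKM for the last, and above them from Lce1d to Lce1h and at Lce1j and Lce1k, at 80.3 FPKM for Lce1g.

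**Figure D4:**
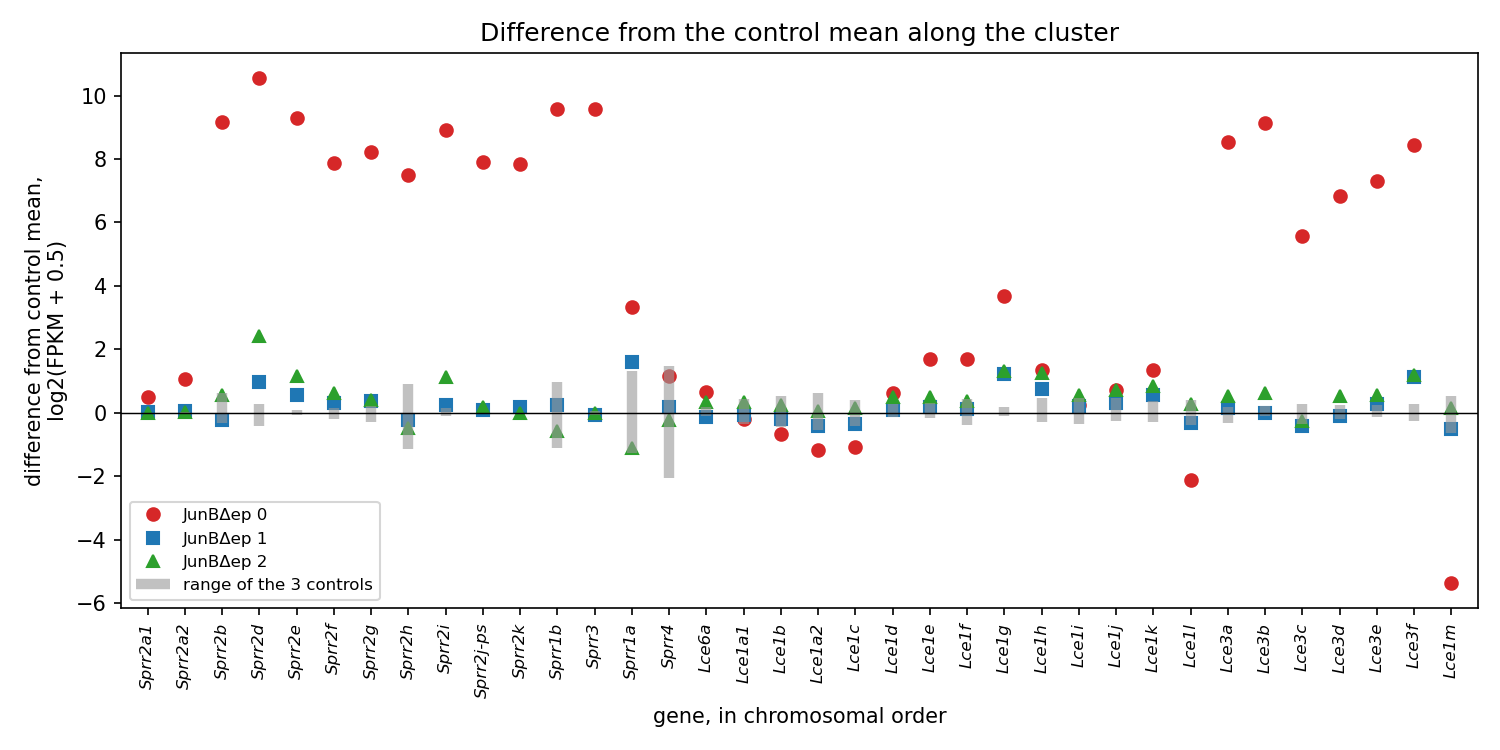
Difference of each JunBΔep library from the control mean, in log2(FPKM + 0.5) units, for the 36 genes in chromosomal order, with grey bars for the range of the 3 controls. JunBΔep replicate 0 reaches 10.54 at Sprr2d and falls to -5.37 at Lce1m, whereas JunBΔep replicates 1 and 2 stay between -1.12 and 2.41.

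Differences shared by all JunBΔep libraries were smaller and lay in one direction. All 3 JunBΔep libraries were above all 3 controls in 11 of the 34 tested members, where 5.62% of all tested genes met this, and below all controls in 0, where 9.16% did. The 11 were Sprr2d, Sprr2e, Sprr2f, Sprr2g, Sprr2i, Sprr2j-ps, Lce3e, Lce3f, Lce1g, Lce1h and Lce1k, and Sprr2a2, which was not tested, met it too at values near 0. The same 11 are those with JunBΔep replicates 1 and 2 above every control, where 11.1% of tested genes were. Of the 11, the Lce1 genes were the 3 at 5 FPKM or more in every library, and the other 8 were below 5 FPKM outside JunBΔep replicate 0. Of these 11, Sprr2j-ps was tested only because of its level in JunBΔep replicate 0. Among members that average 0.1 FPKM over the other 5 libraries, 10 of 31 had both JunBΔep replicates 1 and 2 above every control, against 11.1% of all such genes.

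**Figure D5:**
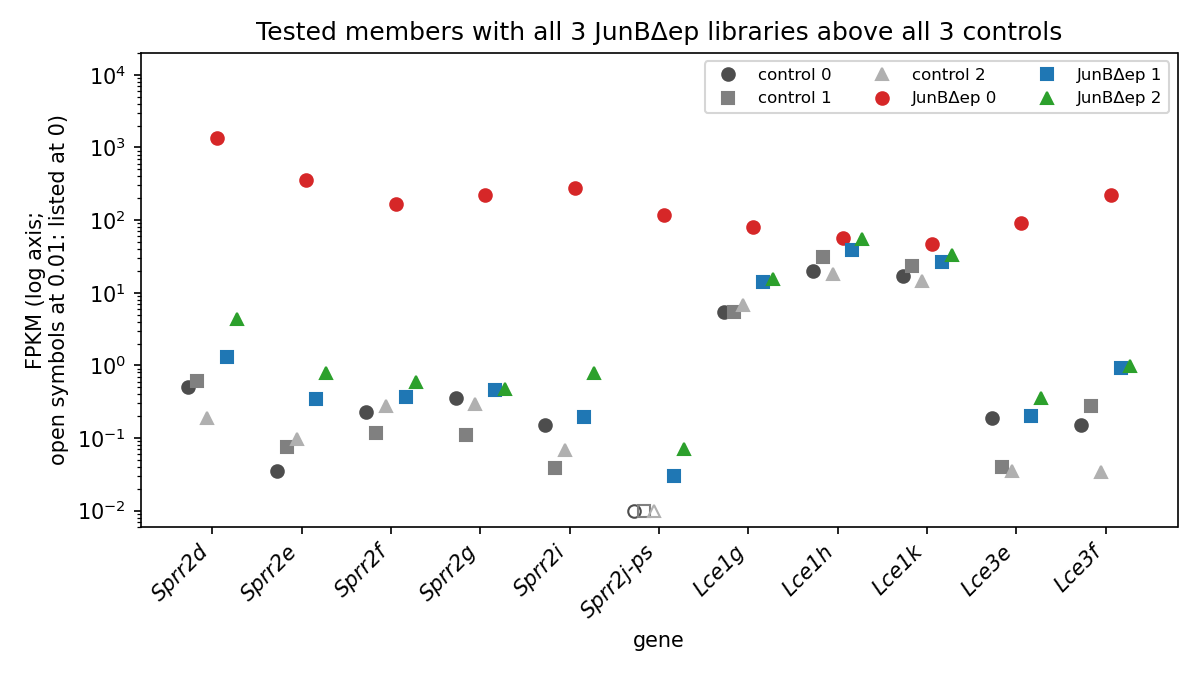
FPKM (log axis) of the 11 tested members with all JunBΔep libraries (coloured) above all controls (grey), with open symbols for values listed at 0. The Lce1 genes differ by modest steps, with Lce1g between 5.37 and 6.70 FPKM for the controls and between 14.1 and 80.3 FPKM for the JunBΔep libraries, whereas in the Sprr2 and Lce3 genes JunBΔep replicates 1 and 2 lie at most at 4.35 FPKM.

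Other envelope and structural genes of the epidermis were examined as a list. Of 17 such envelope and structural genes 16 were in the table, 0 passed the limma test, 11 had a log2 fold change above 0 and 5 below, and the median was 0.22. Without JunBΔep replicate 0 there were 8 above and 8 below, with a median of -0.019. Repetin (Rptn), a precursor with many glutamines, was the only one over 10-fold higher in JunBΔep replicate 0 than elsewhere, at 4.26, 1.42 and 3.39 FPKM in the controls and 392, 2.54 and 1.66 FPKM in the JunBΔep libraries. Loricrin (Lor), the main envelope protein of the epidermis, was at 2335, 3011 and 1408 FPKM in the controls and 823, 1829 and 2316 FPKM in the JunBΔep libraries. Filaggrin 2 (Flg2), a filament-aggregating relative of filaggrin, was at 139, 87.0 and 91.8 FPKM in the controls and 3.08, 68.2 and 101 FPKM in the JunBΔep libraries. Both were lowest in JunBΔep replicate 0, as Lce1m was, with the other JunBΔep libraries overlapping the controls or, for Flg2 in replicate 1, below them. Involucrin (Ivl), an early envelope scaffold, stayed between 75.3 and 96.5 FPKM in all libraries.

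Among 5 cross-linking and processing enzymes 0 passed the test, 4 had a log2 fold change above 0 and the median was 1.13, or 0.63 without JunBΔep replicate 0. Transglutaminase 1 (Tgm1), the membrane-bound enzyme that cross-links the envelope, was at 32.0, 26.4 and 39.9 FPKM in the controls and 144, 61.9 and 40.5 FPKM in the JunBΔep libraries, with no overlap between the groups. The lowest JunBΔep library was only 1.015 times the highest control. Tgm1 was the 1 enzyme of the 5 higher without overlap, where 5.62% of all tested genes were. Caspase 14 (Casp14), a protease of terminal differentiation, was at 31.6, 18.7 and 46.6 FPKM in the controls and 303, 73.0 and 37.4 FPKM in the JunBΔep libraries. It was highest in JunBΔep replicate 0, with replicate 2 inside the control range. Of 17 regulators named for envelope genes 0 passed the test, 14 were above 0 and 3 below, with a median of 0.45, and without JunBΔep replicate 0 there were 12 above and 5 below, with a median of 0.24. The AP-1 partner Fosl2 was at 23.3, 22.2 and 27.4 FPKM in the controls and 91.3, 46.9 and 29.2 FPKM in the JunBΔep libraries, with no overlap. Its lowest JunBΔep library was at 1.07 times the highest control. Fosl2 was the 1 regulator of the 17 higher without overlap, where 5.62% of all tested genes were. Fosl1, another AP-1 subunit, was at 0.229, 0.141 and 0.409 FPKM in the controls and 15.6, 0.414 and 0.224 FPKM in the JunBΔep libraries. It was the 1 regulator of the 17 over 10-fold higher in JunBΔep replicate 0 than in any other library. The POU factor Pou2f3 was at 46.3, 33.1 and 28.2 FPKM in the controls and 13.5, 32.2 and 46.5 FPKM in the JunBΔep libraries, and was lowest in JunBΔep replicate 0. The squamous differentiation factor Klf4 was at 169.8, 139 and 148 FPKM in the controls and 280.3, 162 and 197 FPKM in the JunBΔep libraries, with JunBΔep replicate 1 inside the control range.

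Some markers of other cells moved with JunBΔep replicate 0 as well, whereas skeletal muscle genes differed between the groups. Of 6 mucosal squamous markers 3 (Krt4, Krt13 and Krt76) were over 10-fold higher there than in any other library, and the list summed to 47.6, 55.7 and 103 FPKM in the controls and 3454, 105 and 39.4 FPKM in the JunBΔep libraries. Krt13 was at 1990 FPKM in JunBΔep replicate 0 and at most 0.367 FPKM elsewhere, and Pax9 was at 1.67 FPKM there, at most 0.0179 FPKM in the controls and listed at 0 in JunBΔep replicates 1 and 2. The other two did not stand out, as Krt78 in JunBΔep replicate 0 (43.2 FPKM) lay inside the control range of 28.8 to 54.2 FPKM, and Crnn (10.998 FPKM) lay below control replicate 2 (73.9 FPKM) and JunBΔep replicate 1 (80.4 FPKM). Of 5 neutrophil markers 4 were in the table, 3 of them over 10-fold higher in JunBΔep replicate 0 than elsewhere, with a sum of 769, 17.2 and 10.3 FPKM in the controls and 24940.5, 15.3 and 70.7 FPKM in the JunBΔep libraries. Most of that sum was S100a8, at 744, 13.9 and 8.15 FPKM in the controls and 24456, 13.0 and 65.6 FPKM in the JunBΔep libraries, which inflamed keratinocytes are also known to express. Without it, Csf3r, Cxcr2 and Retnlg were at 44.3, 22.3 and 418 FPKM in JunBΔep replicate 0. All 5 skeletal muscle genes were lower in every JunBΔep library than in every control, with a sum of 14180.1, 17853 and 13930.3 FPKM in the controls and 1413, 1340.2 and 3213 FPKM in the JunBΔep libraries. Of them 4 were called by limma, and 0 with no filter, with either block or without any 1 library except JunBΔep replicate 2. The part of these differences, or of a different body site, in the Sprr and Lce values was not tested.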

How the data were processed

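Whole skin of 3 control and 3 JunBΔep mice was sequenced from poly(A) RNA with strand-specific libraries, 1 library per mouse. Per the labels and methods, the authors checked reads with FastQC, aligned them to mm9 with TopHat 2.0.10, Bowtie 1.0.0 and SAMtools 0.1.19 in the nextpresso pipeline (2 mismatches and 20 multihits allowed) and used the iGenomes annotation. The authors deposited FPKM values per gene and mouse. Cufflinks is named without a version, and any rescaling of the libraries is not given in the sources read. DESeq2 on counts was the authors' own test and was not used here. No value column was left unused.

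Here values were compared as log2(FPKM + 0.5) with limma 3.58.1 (R 4.3.3, intensity trend, two-sided, Benjamini-Hochberg adjustment over all tested genes, threshold 0.05), over genes averaging 0.1 FPKM or more in the 6 libraries. The procedure was tested on simulated data. P-values measure the spread between single mice. Differences by library and by number series, and summed levels, carry no test. Every member could be named, with values in every library for those reaching 1 FPKM anywhere, and other genes only from lists of envelope genes, enzymes, regulators and cell markers. The members, lists and tests were chosen with earlier results of these data known. Positions are from GENCODE vM1 (mm9) and promoters from RefSeq (GRCm38.p6), where the builds were not mixed. Of the 36 members 33 had a promoter and 32 a coding sequence. Identities are from pairwise alignment with Biopython 1.88. Summaries used pandas 2.3.3 under Python 3.11.15, and plots used matplotlib 3.10.9. Alternatives were pseudocounts of 0.1 and 1, no filter or a filter at 1 FPKM, 3 rescalings, limma without trend or with robust estimation, 2 blocks and leaving out each library.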

Additional observations from a re-analysis of the deposited data

How the results depend on the processing

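No Sprr or Lce gene was called under any of the 17 alternatives, with 0.0636 the lowest adjusted p (limma, without JunBΔep replicate 0). The 16 members followed gene by gene kept their sign under the 11 alternatives that keep all 6 libraries. The spread used to judge the subfamily medians includes JunBΔep replicate 0 and is wide. Over all genes the count of 235 called fell to 0 with a replicate block and to 0 with a block on the number series of the sample names, and ranged from 0 to 251 when 1 library was left out, with 0 without control replicate 0, 1 or 2 or JunBΔep replicate 1 and 131 without JunBΔep replicate 0. The cause was not tested. The genes called higher went from 0 to between 0 and 11, with 11 without JunBΔep replicate 0. The same-numbered libraries correlated at 0.12, -0.23 and -0.43 in their deviations from the group means, and differently numbered ones at -0.37 to 0.46. Deviations within a group are tied to each other, so these values cannot decide whether replicate numbers pair the mice. The count of members without overlap, 11, ranged from 11 to 18, with 18 without JunBΔep replicate 1 and 17 without control replicate 1, where fewer libraries have to be separated. The median log2 fold change of the members ranged from 0.24 (without JunBΔep replicate 0) to 2.58. Without JunBΔep replicate 0 the sign turned for 6 of the 34 tested members, Lce1b (-0.22 to 0.0097), Lce3c (-0.34), Sprr1b (-0.18), Sprr2h (-0.35), Sprr3 (-0.030) and Sprr4 (-0.023). Sprr4 also turned without control replicate 1 (-0.66), and Lce1a1 without control replicate 0 (-0.021), control replicate 2 (-0.15) or JunBΔep replicate 2 (-0.13). Leaving out 1 library gave ranges of -0.15 to 0.24 for Lce1a1, -0.34 to 2.65 for Lce3c, -0.18 to 4.91 for Sprr1b, -0.35 to 3.63 for Sprr2h, -0.030 to 4.79 for Sprr3 and -0.66 to 1.10 for Sprr4. Reads are not counted here, so what depth limits is unknown, and Sprr2 and Lce3 values below 1 FPKM are the least certain.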
